A study of Homo sapiens with 27 samples.

Results

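The bone morphogenetic protein (BMP) genes described here are 10 of the 44852 genes in the count table, the ligands BMP2, BMP4 and BMP7, the secreted antagonists NOG and GREM1, the membrane pseudoreceptor BAMBI and the target genes ID1, ID2, ID3 and ID4. Coordinates below are those of the whole genes in GENCODE 44 (GRCh38). The genes were taken as the rows whose Ensembl identifier maps to these symbols, and all 10 were found and passed the count filter. The libraries were made from the human embryonic stem cell line H1 as it was differentiated towards photoreceptor progenitors on recombinant laminins, which are heterotrimeric proteins of basement membranes. Total RNA was sequenced from cells on coatings led by LN523, LN323 or LN521 at days 2, 22 and 32, with 3 replicates in each of the 9 groups and 27 libraries in all. The study asked how laminin isoforms of the retina act on this differentiation, and the comparisons set matrices against each other within a day and days against each other on a matrix.

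Cells at day 2 were undifferentiated H1 cells in a stem cell medium. A neural induction medium with SB431542, an inhibitor of the activin and TGF-beta type I receptors, and CKI-7, a casein kinase inhibitor that lowers Wnt signalling, was then given, followed to day 32 by a photoreceptor differentiation medium with B27 without vitamin A, N2, BDNF, CNTF, retinoic acid and DAPT, an inhibitor of Notch cleavage. The labels of the samples give the coatings as LN523 with LN323, LN323 alone and LN521 with LN323, while the study's methods give LN523 with LN521, LN323 with LN521 and LN521 alone, so each matrix is named here by its leading isoform. Sample titles call the same days 0, 20 and 30. A single cell line was used, and nothing in the sources used here says that the replicates, which were each sequenced in a different lane, came from separate cultures, so the p-values measure the spread between these libraries, which may be technical.

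BMP ligands are secreted dimers that bind type I and type II serine/threonine kinase receptors, and the receptors phosphorylate SMAD1, SMAD5 and SMAD9, which enter the nucleus with SMAD4. Noggin (NOG), gremlin 1 (GREM1) and chordin bind the ligands outside the cell, and BAMBI resembles a type I receptor without a kinase domain. The ID genes are early targets of the SMADs, and their proteins are helix-loop-helix proteins that lack a DNA-binding region and hold E proteins away from DNA. In the vertebrate eye BMP4 is known for dorsal patterning and BMP7 for early eye formation. In whole-culture RNA, fewer cells of a type and less RNA per cell cannot be told apart.

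Promoters were read for the 4 ID genes, since 3 of them rose together in every comparison of day 22 with day 2, and for BAMBI, which held the most copies of the searched GC-rich letters. The sequences are the 250 bases before the RefSeq gene start (GRCh38.p14), 5′ to 3′ on the strand of the gene, at chr20:31605039-31605288 (+) for ID1, chr2:8681806-8682055 (+) for ID2, chr1:23559502-23559751 (−) for ID3, chr6:19837120-19837369 (+) for ID4 and chr10:28677271-28677520 (+) for BAMBI. Capitals mark GGCGCC, which reads the same on both strands, and GTCT on either strand (AGAC on the strand shown), both of which SMAD proteins are known to bind.
ID1: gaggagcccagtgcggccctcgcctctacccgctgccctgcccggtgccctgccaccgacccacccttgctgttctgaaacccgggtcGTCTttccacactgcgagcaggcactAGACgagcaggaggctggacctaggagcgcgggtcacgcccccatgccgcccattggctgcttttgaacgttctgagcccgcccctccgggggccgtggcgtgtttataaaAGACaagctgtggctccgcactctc
ID2: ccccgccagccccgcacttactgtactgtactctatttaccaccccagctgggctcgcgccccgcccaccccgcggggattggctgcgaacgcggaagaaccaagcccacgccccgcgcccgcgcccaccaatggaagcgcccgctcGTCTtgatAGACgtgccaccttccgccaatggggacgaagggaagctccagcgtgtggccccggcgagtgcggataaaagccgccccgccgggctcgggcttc
ID3: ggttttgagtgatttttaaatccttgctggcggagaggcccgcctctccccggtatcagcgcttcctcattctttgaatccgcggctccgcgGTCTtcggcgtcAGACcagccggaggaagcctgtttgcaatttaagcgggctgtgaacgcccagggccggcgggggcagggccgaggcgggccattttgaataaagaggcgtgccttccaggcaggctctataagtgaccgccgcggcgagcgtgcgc
ID4: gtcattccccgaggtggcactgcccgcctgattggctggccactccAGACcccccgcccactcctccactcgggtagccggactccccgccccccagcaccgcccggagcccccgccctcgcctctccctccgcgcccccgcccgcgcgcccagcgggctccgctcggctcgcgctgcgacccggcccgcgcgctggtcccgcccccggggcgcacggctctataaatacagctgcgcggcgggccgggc
BAMBI: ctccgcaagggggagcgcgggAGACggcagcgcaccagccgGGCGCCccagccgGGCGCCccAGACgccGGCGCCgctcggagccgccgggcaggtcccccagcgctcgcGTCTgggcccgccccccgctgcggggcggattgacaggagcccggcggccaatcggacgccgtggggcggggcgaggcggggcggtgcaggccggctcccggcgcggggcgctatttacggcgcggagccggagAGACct

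Promoters of 7 of the 10 genes were matched in the RefSeq table. GGCGCC was found 3 times in the BAMBI window, 2 times in that of GREM1 and 1 time in that of BMP4, and it was in none of the 4 ID windows. Of 27305 promoters of the same length, 16.1% held it. GTCT was found 3 times before ID1, 2 times each before ID2 and ID3, 1 time before ID4 and 4 times before BAMBI, and 77.6% of all promoters held at least 1 copy. The E-box letters CANNTG, on either strand, occurred 1 time each before ID2 and ID4 and not before ID1, ID3 or BAMBI, with 62.2% of all promoters holding them. The composite GGCGCCNNNNNGTCT, in which both SMAD letters lie 5 bases apart, was in 0.0842% of all promoters and in none of the 7. These matches are letters in a window and are not binding sites shown by these data.

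The libraries held 25620624 to 47340990 counts, with a median of 39862487, and the lowest count of any of the 10 genes in a library was 10, for NOG. Levels are given as CPM, counts scaled to a library total of 1000000 after normalisation over all 27 libraries. TPM, the values scaled by gene length that the authors deposited, are used where genes are compared with each other. The summed level of 6 pluripotency markers was 5421 to 9588 CPM at day 2, 38.7 to 408 CPM at day 22 and 8.81 to 63.1 CPM at day 32. Eye field and neural retina markers summed to 3.56 to 6.91 CPM at day 2, 922 to 1974 CPM at day 22 and 935 to 2204 CPM at day 32. CRX, a photoreceptor transcription factor, was at 27.6, 36.0 and 5.57 CPM in the LN523 libraries of day 32, and RCVRN, the photoreceptor calcium-binding protein recoverin, was at 4.48, 2.55 and 0.184 CPM there. Replicate 1 of LN521 stood apart in the pluripotency factor POU5F1, which was at 73.8, 1.33 and 1.48 CPM in replicates 1, 2 and 3 of LN521 at day 22 and at 14.7, 1.70 and 1.23 CPM at day 32. Replicate 2 of LN523 and LN323 at days 22 and 32 held the most mesenchyme marker RNA of its group, with a sum over 7 genes of 2792, 10826 and 2643 CPM on LN523 at day 32.

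BMP4, NOG, GREM1, BMP7, BAMBI, ID2, ID3 and ID4 were higher at day 22 than at day 2 on all 3 matrices, and the 9 libraries of day 22 lay above the 9 of day 2 for each of these 8 genes. The share of all genes whose days lay apart in this way was not counted. On LN523, 9 of the 10 genes were called by the edgeR quasi-likelihood test at a Benjamini-Hochberg adjusted p under 0.05, 8 higher and BMP2 lower, where 21.7% of 44852 genes were called and 11.5% were called higher. On LN323, 9 were called, all higher, against 22.7% of all genes called and 11.8% called higher. On LN521, 8 were called, all higher, against 18.9% called and 10.8% called higher. Of the 44852 genes, 16366 had a mean of at least 1 CPM, and the share called among those was not counted. The median log2 fold change of the 10 genes was 2.66 on LN523, 3.14 on LN323 and 2.82 on LN521, and that of all genes was 0.02, 0.02 and −0.02. DESeq2 called 9, 10 and 8 of the genes in the same order.

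**Figure D1:**
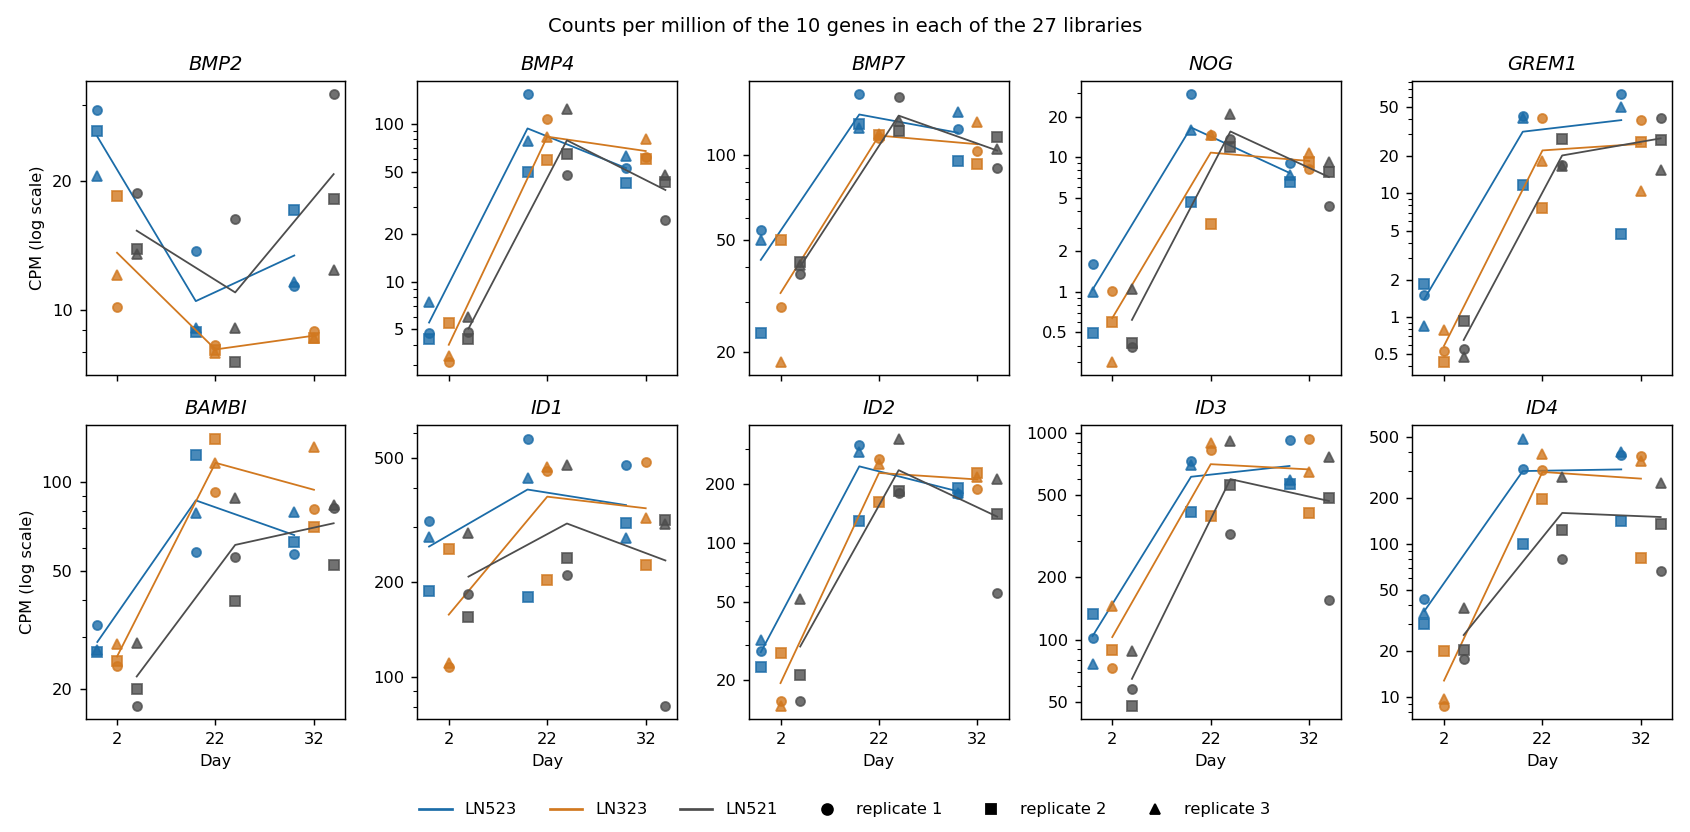
Level of each gene in CPM (log scale) against the day, with 1 point per library, colour for the matrix, marker shape for the replicate and lines through the mean of 3 replicates. BMP4, NOG and GREM1 rise from below 10 CPM at day 2, ID1 stays between 80.6 and 577 CPM throughout, and BMP2 is the one gene whose mean is lower at day 22 on all 3 matrices.

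BMP4 (chr14:53949736-53958761, minus strand, ENSG00000125378) encodes the ligand best known for inducing ventral mesoderm, epidermis and dorsal eye. At day 2 it was at 4.74, 4.37 and 7.49 CPM on LN523, 3.13, 5.47 and 3.40 CPM on LN323 and 4.84, 4.36 and 5.97 CPM on LN521. At day 22 it stood at 154, 49.4 and 77.8 CPM on LN523, 108, 59.3 and 82.2 CPM on LN323 and 47.2, 64.5 and 125 CPM on LN521. The lowest library of day 22 was thus above the highest of day 2, and the matrices overlapped within each day. The log2 fold change from day 2 to day 22 was 4.11 ± 0.33 (SE, n = 3 per group) on LN523, with an edgeR adjusted p of 1.28e-14, 4.33 ± 0.34 on LN323 and 3.92 ± 0.33 on LN521. An uncharacterised gene on the opposite strand covers 16.3% of the exonic bases of BMP4, and the strand setting of the counting is not given in the sources used here. At day 32 BMP4 was at 52.7, 42.0 and 63.1 CPM on LN523, 61.7, 60.4 and 80.1 CPM on LN323 and 24.5, 43.0 and 47.2 CPM on LN521. These values overlapped day 22 on LN523 and LN323. On LN521 the libraries of day 32 lay below those of day 22, though the highest of day 32 and the lowest of day 22 both rounded to 47.2 CPM.

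BMP7 (chr20:57168753-57266641, minus strand, ENSG00000101144) encodes a ligand with roles in kidney and eye formation. Its 9 libraries ranged over 18.5 to 54.1 CPM at day 2, 115 to 164 CPM at day 22 and 90.2 to 142 CPM at day 32. With the matrices pooled, day 22 and day 32 overlapped and both lay above day 2. On LN521 alone the libraries of day 32 lay below those of day 22. The log2 fold change there was −0.40 ± 0.25, which did not pass the edgeR test (adjusted p = 0.98). From day 2 to day 22 BMP7 rose by 1.72 ± 0.26 log2 units on LN523, 1.85 ± 0.26 on LN323 and 1.78 ± 0.26 on LN521, with edgeR adjusted p of 3.59e-07, 8.03e-08 and 2.3e-07. At day 22 its means were 139.5 ± 21.6 CPM on LN523, 117 ± 2.11 CPM on LN323 and 138 ± 20.6 CPM on LN521 (SD, n = 3). BMP7 was called in no comparison between matrices by the edgeR test.

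BMP2 (chr20:6767686-6780246, plus strand, ENSG00000125845), whose product is a close relative of BMP4, had lower means at day 22 than at day 2. At day 2 it was at 29.2, 26.1 and 20.5 CPM on LN523, 10.2, 18.4 and 12.1 CPM on LN323 and 18.7, 13.9 and 13.5 CPM on LN521, and the 3 LN523 libraries lay above those of both other matrices. At day 22 it was at 13.7, 8.90 and 9.09 CPM on LN523, 8.30, 8.10 and 7.94 CPM on LN323 and 16.3, 7.60 and 9.11 CPM on LN521. The groups of day 2 and day 22 did not overlap on LN523 and LN323, and they overlapped on LN521 through replicate 1. BMP2 fell on LN523, with a log2 fold change of −1.27 ± 0.31 and an edgeR adjusted p of 0.00123. It was −0.75 ± 0.31 on LN323 (adjusted p = 0.0739) and −0.50 ± 0.30 on LN521 (adjusted p = 0.329), neither of which passed the edgeR test. On LN323 the fall passed with DESeq2 (adjusted p = 0.0271), with either stricter count filter (0.0421 and 0.0397) and without replicate 1 of day 2 (0.0223). At day 32 the LN521 libraries were at 31.7, 18.1 and 12.4 CPM, the LN523 libraries at 11.4, 17.1 and 11.6 CPM and the LN323 libraries at 8.95, 8.61 and 8.62 CPM, with replicate 1 of LN521 the highest of all 27.

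NOG (chr17:56593699-56595611, plus strand, ENSG00000183691) encodes noggin, the antagonist used by the Spemann organiser to hold BMP ligands off the neural plate. At day 2 it was at 1.61, 0.493 and 1.00 CPM on LN523, 1.01, 0.602 and 0.304 CPM on LN323 and 0.390, 0.418 and 1.05 CPM on LN521. It had reached 29.2, 4.61 and 15.8 CPM on LN523, 14.5, 3.19 and 14.6 CPM on LN323 and 13.6, 11.9 and 20.9 CPM on LN521 by day 22. The lowest value of day 22, in replicate 2 of LN323, was above the highest of day 2, and replicate 2 was the lowest library on each of the 3 matrices at day 22. The rise was 3.91 ± 0.50 log2 units on LN523 (edgeR adjusted p = 1.24e-08), 3.90 ± 0.51 on LN323 and 4.65 ± 0.52 on LN521. The range over the 9 libraries of day 32 was 4.33 to 10.7 CPM, and on LN521 the libraries of day 32 lay below those of day 22, with a log2 fold change of −1.04 ± 0.44 that did not pass the edgeR test (adjusted p = 0.644).

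GREM1 (chr15:32718004-32745106, plus strand, ENSG00000166923) encodes a second secreted antagonist. Its fitted rise was the largest of the 10 genes on each matrix on the edgeR scale, but not on log2(TPM + 1), where BMP4, NOG, ID2, ID3 and ID4 rose more. At day 2 it was at 1.51, 1.85 and 0.849 CPM on LN523, 0.530, 0.437 and 0.790 CPM on LN323 and 0.557, 0.928 and 0.474 CPM on LN521. By day 22 the levels were 42.4, 11.7 and 40.6 CPM on LN523, 41.0, 7.60 and 18.3 CPM on LN323 and 16.9, 27.5 and 16.6 CPM on LN521. Replicate 2 was again the lowest on LN523 and LN323, but it was the highest on LN521. The log2 fold change was 4.41 ± 0.56 on LN523 (edgeR adjusted p = 7.42e-09), 5.08 ± 0.58 on LN323 and 4.97 ± 0.57 on LN521. On the log2(TPM + 1) scale, which compresses low genes, the rises of GREM1 were 2.76, 2.45 and 2.48 on LN523, LN323 and LN521, those of BMP4 4.06, 4.41 and 3.68 and those of NOG 3.45, 3.31 and 3.92. At day 32 LN523 libraries spread further, at 63.3, 4.69 and 49.6 CPM, LN323 libraries at 39.0, 26.3 and 10.4 CPM and LN521 libraries at 40.9, 27.3 and 15.5 CPM. Replicate 2 of LN523, the lowest in GREM1 at day 32, was also the library of its group with the highest mesenchyme marker sum. Replicate 2 of LN323 at day 32 held the highest such sum of its group as well, at 16639.5 CPM, but was the middle library in GREM1. The part of mesenchyme cells in these values was not tested.

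BAMBI (chr10:28677510-28682932, plus strand, ENSG00000095739) encodes the membrane pseudoreceptor without a kinase domain and is itself known to be induced by BMP. At day 2 it was at 32.8, 26.7 and 27.0 CPM on LN523, 23.8, 24.9 and 28.4 CPM on LN323 and 17.5, 20.0 and 28.6 CPM on LN521. Its levels at day 22 were 58.1, 124 and 78.5 CPM on LN523, 92.7, 141 and 116 CPM on LN323 and 55.8, 39.6 and 88.7 CPM on LN521. Every library of day 22 was above every library of day 2, and the 3 LN323 libraries of day 22 were above the 3 of LN521. It rose by 1.58 ± 0.25 log2 units on LN523, 2.19 ± 0.26 on LN323 and 1.47 ± 0.25 on LN521, with edgeR adjusted p of 1.45e-06, 8.54e-10 and 6.94e-06. At day 32 its 9 libraries ranged over 52.7 to 131 CPM and overlapped those of day 22 on each matrix.

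**Figure D2:**
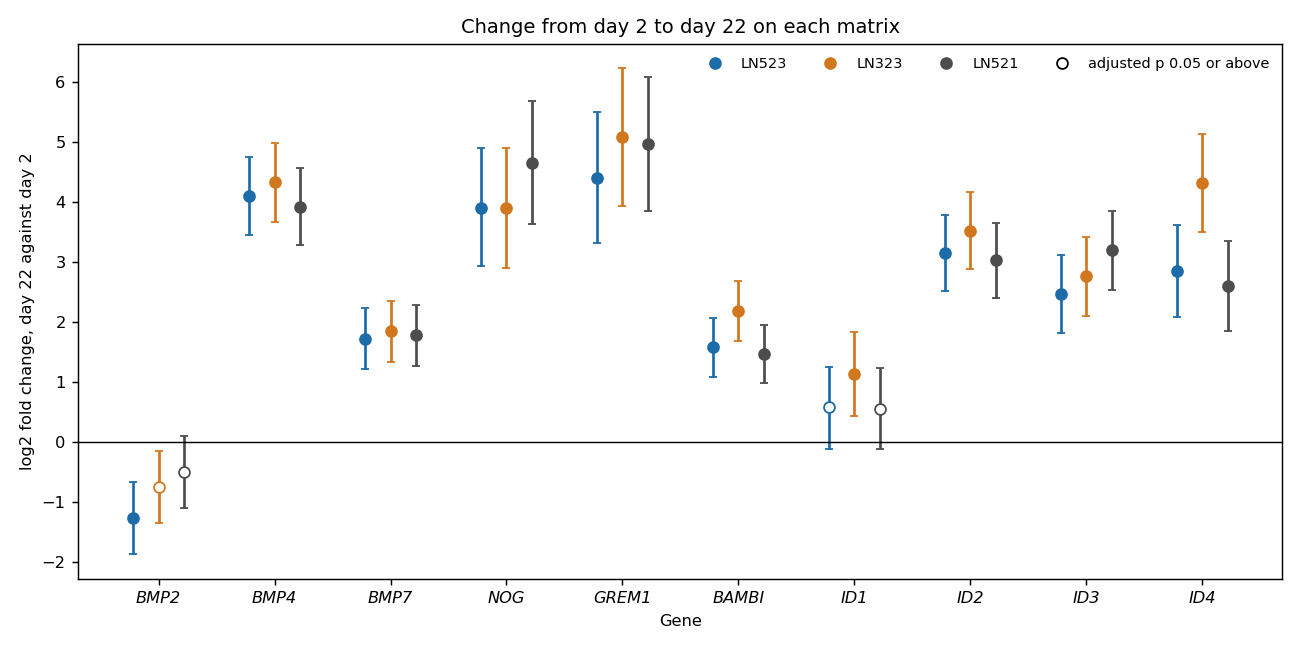
Log2 fold change from day 2 to day 22 for the 10 genes on each matrix, from the edgeR fit over 27 libraries. Bars are approximate 95% intervals, and filled points mark an adjusted p under 0.05. GREM1 is highest on each matrix in this fit but not on log2(TPM + 1), ID1 is filled on LN323 alone at 1.13, and BMP2 is below 0 on all 3 matrices and filled on LN523 alone.

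ID1 (chr20:31605283-31606515, plus strand, ENSG00000125968) is the ID gene most used as a readout of BMP signalling. It was already high in undifferentiated cells, at 314, 188 and 279.9 CPM on LN523, 107, 256 and 110.1 CPM on LN323 and 184, 155 and 287 CPM on LN521. At day 22 it was at 577, 180.0 and 433 CPM on LN523, 455, 204 and 469.5 CPM on LN323 and 211, 239.8 and 476 CPM on LN521. Days 2 and 22 overlapped on all 3 matrices, on LN323 because replicate 2 was the highest of its group at day 2 and the lowest at day 22. The log2 fold change was 0.58 ± 0.35 on LN523 (edgeR adjusted p = 0.302) and 0.56 ± 0.35 on LN521 (adjusted p = 0.338), with 95% intervals of −0.11 to 1.26 and −0.12 to 1.24. On LN323 it was 1.13 ± 0.36, with an edgeR adjusted p of 0.0146. That call was lost with either stricter count filter (adjusted p 0.0712 and 0.0585) and without replicate 1 or 3 of day 2 (0.82 and 0.80 on the log2 scale, edgeR adjusted p 0.161 and 0.169), and the change was 1.91 without replicate 2 of day 2. On LN523 the rise passed without replicate 2 of day 22, at 1.04 (edgeR adjusted p = 0.0165). At day 32 ID1 was at 474, 310.5 and 277 CPM on LN523, 487, 228 and 322 CPM on LN323 and 80.6, 317 and 308 CPM on LN521, and replicate 1 of LN521 was the lowest of the 27 libraries.

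ID2 (chr2:8678845-8684461, plus strand, ENSG00000115738) encodes an ID protein known from neural and lymphoid progenitors. It was at 27.9, 23.1 and 31.8 CPM on LN523, 15.5, 27.2 and 14.7 CPM on LN323 and 15.6, 21.1 and 51.8 CPM on LN521 at day 2. At day 22 it reached 314, 129.6 and 291 CPM on LN523, 266, 161 and 253 CPM on LN323 and 179.9, 183 and 339 CPM on LN521. No library of day 22 was within the range of day 2, and the matrices overlapped at both days. Its log2 fold change was 3.15 ± 0.32 on LN523, 3.52 ± 0.33 on LN323 and 3.04 ± 0.32 on LN521, with edgeR adjusted p of 2.3e-11, 1.2e-12 and 6.86e-11. The antisense gene ID2-AS1 covers 6.6% of its exonic bases. The libraries of LN523 and LN323 lay within 178 to 226 CPM at day 32, while those of LN521 were at 55.6, 140.0 and 212 CPM.

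ID3 (chr1:23557926-23559501, minus strand, ENSG00000117318) was at 102, 134 and 76.6 CPM on LN523, 73.3, 89.8 and 146 CPM on LN323 and 57.7, 48.1 and 88.8 CPM on LN521 at day 2. At day 22 the values were 728, 413 and 695 CPM on LN523, 825, 394 and 892 CPM on LN323 and 322, 557 and 909 CPM on LN521. The days did not overlap on any matrix, and the libraries of the 3 matrices were mixed within day 22. It rose by 2.47 ± 0.33 log2 units on LN523, 2.77 ± 0.33 on LN323 and 3.20 ± 0.34 on LN521 (edgeR adjusted p 3.37e-08, 2.24e-09 and 8.91e-11). By day 32 it was at 916, 563 and 591 CPM on LN523, 935, 411 and 646 CPM on LN323 and 156, 486 and 762 CPM on LN521, again with replicate 1 of LN521 lowest. That library held the 14.7 CPM of POU5F1 given above, and the part of undifferentiated cells was not tested.

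ID4 (chr6:19837370-19842197, plus strand, ENSG00000172201) is the ID gene tied to neural stem cells and astrocytes. At day 2 it was at 43.8, 30 and 35.5 CPM on LN523, 8.76, 20.0 and 9.67 CPM on LN323 and 17.7, 20.4 and 38.0 CPM on LN521. At day 22 it was at 309, 100.5 and 487 CPM on LN523, 302, 196 and 388 CPM on LN323 and 79.8, 123 and 275 CPM on LN521. All LN523 libraries of day 2 were above all LN323 libraries of day 2, and no library of day 22 fell into the range of day 2. The rise was 2.85 ± 0.39 log2 units on LN523 (edgeR adjusted p = 6.03e-08), 4.32 ± 0.42 on LN323 (adjusted p = 4.35e-12) and 2.61 ± 0.39 on LN521 (adjusted p = 4.19e-07). At day 32 the values were 379, 140.3 and 401 CPM on LN523, 375, 80.3 and 345 CPM on LN323 and 66.2, 135 and 248 CPM on LN521. Replicate 2 was the lowest library on LN523 and LN323 at both later days, and replicate 1 was the lowest on LN521.

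Set side by side as TPM, ID1 and ID3 had the highest medians of the 10 genes at every day. The median over the 9 libraries of day 2, with the range, was 677 (274 to 842) TPM for ID1, 166 (109 to 249.9) for ID3, 39.1 (20.5 to 84.8) for ID2, 37.3 (32.6 to 46.9) for BAMBI and 35.5 (11.9 to 61.7) for ID4. Among ligands it was 30.6 (10.5 to 33.0) TPM for BMP7, 17.0 (8.97 to 26.8) for BMP2 and 5.78 (3.22 to 8.42) for BMP4, and for the antagonists 1.06 (0.493 to 2.82) for NOG and 0.173 (0.0997 to 0.409) for GREM1. The ranges of ID2, BAMBI, ID4, BMP7 and BMP2 overlapped from each gene to the next, while ID1, ID3, BMP4, NOG and GREM1 each lay clear of the genes above and below them in that order. At day 22 the order was ID3 at 1547 (759 to 2076) TPM, ID1 at 1404 (623 to 1969.6), ID4 at 482 (144 to 831), ID2 at 444 (251 to 632), BAMBI at 157 (68.3 to 250.4), BMP4 at 101 (64.8 to 210.1), BMP7 at 92.5 (85.3 to 128), NOG at 30.4 (6.94 to 65.0), BMP2 at 10.1 (8.42 to 19.2) and GREM1 at 4.90 (2.14 to 12.2). BMP4 thus moved from the eighth to the sixth place and passed BMP2, whose level at day 22 was below that of BMP4 in each of the 9 libraries. Within day 22 the range of each gene overlapped that of the next in the order, except ID2 with BAMBI and BMP7 with NOG. At day 32 the medians stood in the same order apart from BMP7 and BMP4, at 79.9 (69.5 to 104) and 67.5 (34.4 to 103) TPM.

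From day 22 to day 32 none of the 10 genes was called on any matrix by the edgeR quasi-likelihood test, where 0.381%, 0.0424% and 0.268% of all genes were called on LN523, LN323 and LN521. At an unadjusted edgeR p under 0.05 there were 2, 0 and 4 of the 10, beside 1963, 1280 and 2763 of all 44852 genes. DESeq2 and limma on log2(TPM + 1) called 0 on each matrix. The 4 genes on LN521 were BMP4 at −1.0 ± 0.29 log2 units (edgeR adjusted p = 0.186), NOG at −1.04 ± 0.44, ID2 at −0.81 ± 0.30 and BMP2 at 0.89 ± 0.31. On LN523 they were BMP4 at −0.85 ± 0.29 and NOG at −0.95 ± 0.45. Fitted on the 9 LN521 libraries alone, BMP4 (−0.98, edgeR adjusted p = 0.0279) and ID2 (−0.91, 0.0136) were called. BMP4 was also called without replicate 1 of day 22 on LN521 (−1.27, edgeR adjusted p = 0.0227) and without replicate 2 of day 22 on LN523 (−1.15, 0.0365). For ID1, ID3 and ID4 the 95% intervals of this change included 0 on all 3 matrices.

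Between matrices, ID4 was the gene called most often. It was lowest on LN323 at day 2 and lowest on LN521 at day 22. At day 2 ID4 was higher on LN523 than on LN323, at means of 36.4 ± 6.94 and 12.8 ± 6.22 CPM (SD, n = 3), and lower on LN323 than on LN521, at 25.4 ± 11.0 CPM. ID1 was also higher on LN523 than on LN323 at day 2, at 261 ± 65.2 and 158 ± 85.0 CPM. These 2 of 10 genes were called for LN523 against LN323, where 0.233% of 38650 genes were called. The log2 fold change was 1.58 ± 0.24 for ID4 (edgeR adjusted p = 2.07e-07) and 0.77 ± 0.19 for ID1 (adjusted p = 0.0219), with ID4 higher in 3 of 3 lanes and ID1 in 2 of 3. The median log2 fold change of the 10 genes was 0.57 there, 0.41 for LN523 against LN521 and −0.37 for LN323 against LN521, beside −0.04, −0.19 and −0.20 over all genes. For LN323 against LN521, ID4 alone was called, at −1.08 ± 0.24 (edgeR adjusted p = 0.000955), where 2.5% of genes were called. For LN523 against LN521, 0 of 10 were called against 0.624% of genes. At an unadjusted edgeR p under 0.05 there were 3 of the 10, beside 3118 of all 38650 genes, and DESeq2 and limma called 0. Without the lane term the counts were 3, 1 and 3 for LN523 against LN323, LN523 against LN521 and LN323 against LN521, BMP2 (0.92, edgeR adjusted p = 0.0171), ID3 (0.60, 0.0373) and ID2 and ID3 (−0.70 and 0.57, 0.0241 and 0.0288) being added.

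These day 2 calls depended on single libraries. Replicate 2 of LN323 was the highest of its group for ID1, ID4, BMP2, BMP4, BMP7 and ID2. Without it ID4 differed by 2.13 and ID1 by 1.45 log2 units between LN523 and LN323 (edgeR adjusted p 4.53e-15 and 3.66e-12), and 5 genes were called, adding BMP2, BMP7 and ID2 at 1.19, 0.98 and 0.99. ID4 lost its call without replicate 1 of LN323 (edgeR adjusted p = 0.0698) or of LN523 (0.193), and ID1 lost its call without replicate 1 or 3 of either matrix (adjusted p 0.136 to 1.0). For LN323 against LN521, ID4 lost its call without replicate 1 or 3 of LN323 (edgeR adjusted p 0.422 and 0.283) or replicate 3 of LN521 (0.242), and 5 genes were called without replicate 2 of LN323, where ID4 was at −1.64. ID1 was also called for LN323 against LN521 without replicate 2 of LN521 (−0.85, edgeR adjusted p = 0.0274), BMP7 for LN523 against LN323 without replicate 2 of LN523 (1.00, 0.00587), and ID3 for LN523 against LN521 without replicate 3 of LN521 or of LN523 (0.80 and 1.07, 0.0361 and 8.12e-05). None of the day 2 calls was made with limma, with either stricter count filter or with all 27 libraries in the fit. DESeq2 kept ID4 in both comparisons (adjusted p 0.000495 and 0.043), lost ID1 (0.757) and added BMP2 between LN523 and LN323 (0.91, 0.0389).

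At day 22 ID4 was lower on LN521 than on both other matrices, at means of 299 ± 194 CPM on LN523, 295 ± 96.3 CPM on LN323 and 159 ± 103 CPM on LN521 (SD, n = 3). BAMBI was higher on LN323, at 116 ± 24.0 CPM, than on LN521, at 61.4 ± 25.0 CPM, with LN523 between them at 86.9 ± 33.8 CPM. For LN323 against LN521, where 0.616% of 38609 genes were called, the log2 fold change was 0.96 ± 0.19 for ID4 (edgeR adjusted p = 0.00153) and 0.91 ± 0.19 for BAMBI (adjusted p = 0.00262), both higher in 3 of 3 lanes. For LN523 against LN521, where 0.572% were called, it was 0.82 ± 0.20 for ID4 (edgeR adjusted p = 0.0184), higher in 2 of 3 lanes. For LN523 against LN323, 0 of 10 genes were called against 0.013% of all genes. At an unadjusted edgeR p under 0.05 there were 3 (NOG, GREM1 and BAMBI), beside 514 of all 38609 genes, and DESeq2 and limma called 0. DESeq2 and limma also called 0 in both comparisons with LN521, and the medians of the 10 genes were 0.09, 0.10 and −0.01 log2 units for LN523 against LN323, LN523 against LN521 and LN323 against LN521, beside 0.02, −0.02 and −0.07 over all genes. Without the lane term 0 genes were called in all 3 comparisons, and edgeR adjusted p were 0.898 for ID4 and 0.862 for BAMBI between LN323 and LN521 and 0.904 for ID4 between LN523 and LN521.

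ID4 between LN323 and LN521 at day 22 lost its call without any 1 of the LN323 libraries (edgeR adjusted p 0.921, 0.766 and 0.239 without replicates 1, 2 and 3) or without replicate 1 of LN521 (0.54 log2 units, 0.064). BAMBI lost its call without any 1 of the LN323 libraries (edgeR adjusted p 0.659, 0.553 and 0.368) or without replicate 2 of LN521 (0.49 log2 units, 0.326). Between LN523 and LN521, ID4 lost its call without replicate 1 of LN521 (0.37 log2 units, edgeR adjusted p = 0.627) and without replicate 1 or 3 of LN523 (0.50 and 0.68, 0.991 and 1.0), and it was 1.25 without replicate 2 of LN523. Without replicate 2 or 3 of LN521, GREM1 (1.32, edgeR adjusted p = 0.000145) or BAMBI (0.79, 0.0438) was added there. Without replicate 2 of LN523, GREM1 (0.93, edgeR adjusted p = 0.0240) and BAMBI (−0.84, 0.0198) were called between LN523 and LN323. Replicate 1 of LN521, the lowest library of day 22 in ID4, ID3 and BMP4, was the one with 73.8 CPM of POU5F1, and the part of undifferentiated cells in these values was not tested. Without it NOG (−1.34, edgeR adjusted p = 8.15e-05) and GREM1 (−0.88, 0.0157) were called lower on LN323 than on LN521.

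**Figure D3:**
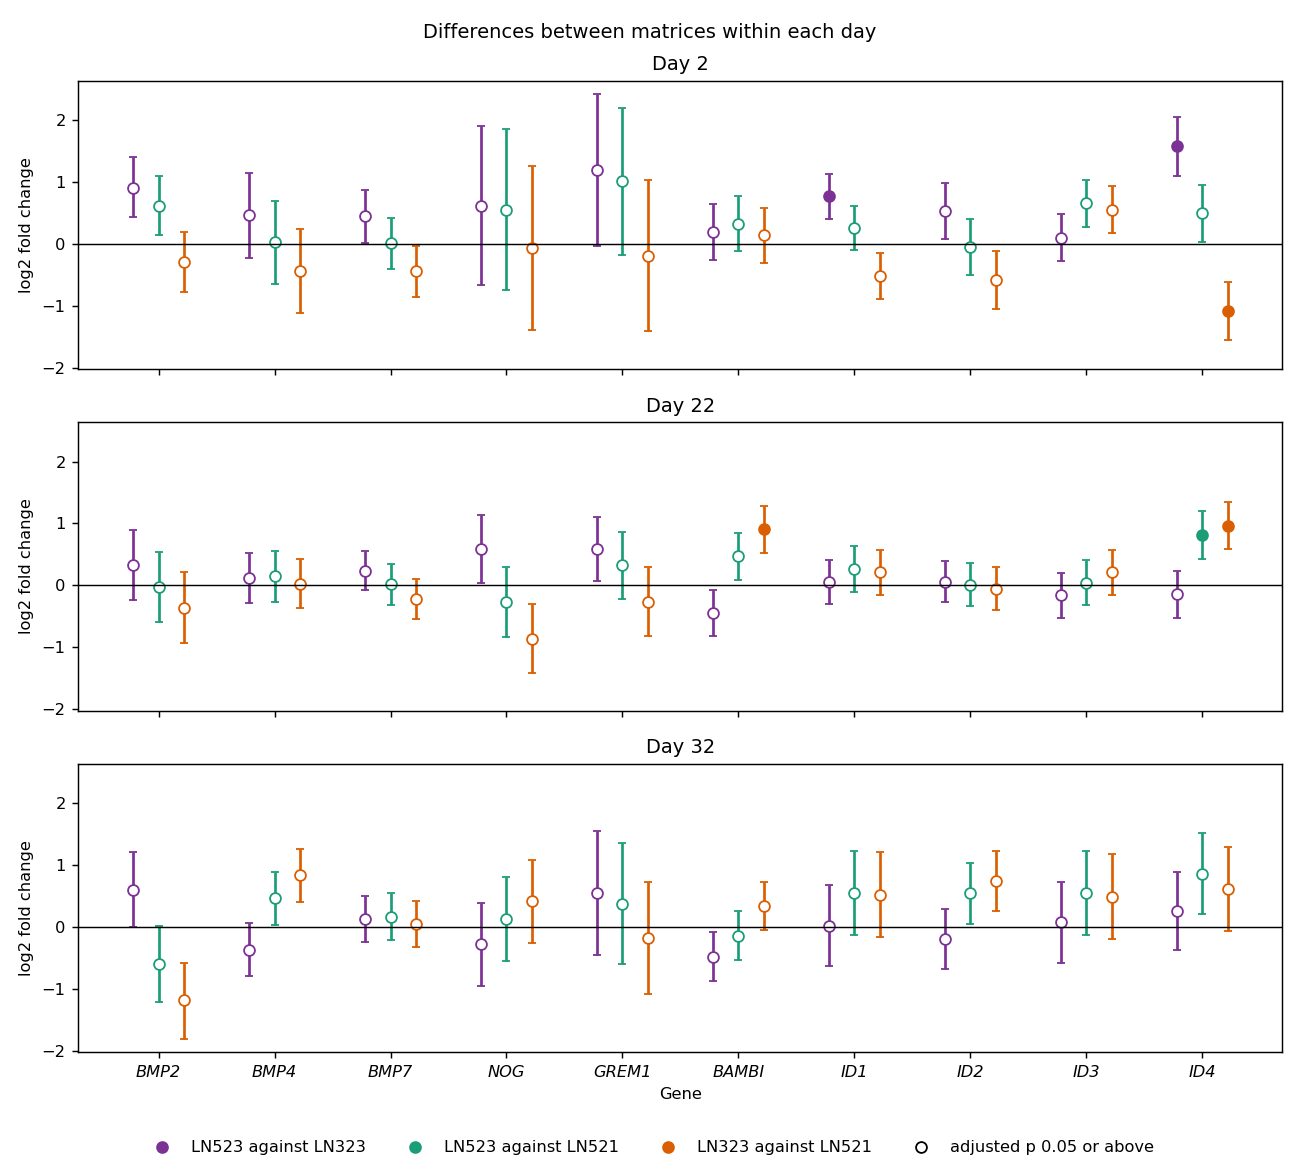
Log2 fold change between matrices within day 2, day 22 and day 32 for the 10 genes, from the edgeR fit of the day's 9 libraries. Bars are approximate 95% intervals, and filled points mark an adjusted p under 0.05. ID4 is filled in 4 of the 9 comparisons, ID1 and BAMBI in 1 each, and no point is filled at day 32.

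At day 32 no gene of the 10 was called between matrices by edgeR, where 0.0%, 0.0609% and 0.117% of 39377 genes were called for LN523 against LN323, LN523 against LN521 and LN323 against LN521. At an unadjusted edgeR p under 0.05 there were 1, 3 and 3 of the 10, beside 747, 2034 and 1762 of all 39377 genes. Limma called 0 in each, and DESeq2 called 0, 0 and 1. The gene called by DESeq2 was BMP2, lower on LN323 at 8.73 ± 0.192 CPM than on LN521 at 20.7 ± 9.91 CPM (SD, n = 3), with a DESeq2 adjusted p of 0.0275 and an edgeR adjusted p of 0.237. BMP4 was at 67.4 ± 11.0 CPM on LN323 and 38.2 ± 12.1 CPM on LN521, without overlap and with a log2 fold change of 0.83 ± 0.22 (edgeR adjusted p = 0.243). Without replicate 1 of LN521, BMP4 (0.60, edgeR adjusted p = 0.00356) and BAMBI (0.56, 0.00463) were called between these 2 matrices. ID4 was at 307, 267 and 149.8 CPM on LN523, LN323 and LN521, and the 95% interval of LN523 against LN521 was 0.20 to 1.52 on the log2 scale (edgeR adjusted p = 0.667).

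The change between days was compared between matrices by an interaction term in the fit over 27 libraries. From day 2 to day 22, 0 of 10 genes were called for LN523 against LN323, LN523 against LN521 and LN323 against LN521, against 0.0%, 0.00446% and 0.0201% of all genes, and 0 by DESeq2 and limma. At an unadjusted edgeR p under 0.05 there were 1, 0 and 2 of the 10, beside 949, 2085 and 2383 of all 44852 genes. The larger of these differences were those of ID4, whose rise was 1.47 log2 units smaller on LN523 than on LN323 (unadjusted p = 0.00665, edgeR adjusted p = 1.0) and 1.72 larger on LN323 than on LN521 (0.0019, adjusted 0.372). Without replicate 2 of LN323 at day 2 both passed, at −2.43 and 2.63 (edgeR adjusted p 0.0292 and 0.00365). From day 22 to day 32, 0 genes were called for all 3 pairs of matrices, against 0.0%, 0.0% and 0.0% of all genes, and DESeq2 and limma called 0. At an unadjusted edgeR p under 0.05 there were 0 of the 10 for each pair, beside 901, 2142 and 1540 of all 44852 genes.

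Several of the genes were low or high in the same replicates of a group. At day 22 replicate 2 was the lowest of its group for 8 of the 10 genes on LN523 and for 7 on LN323, and it was the highest for BAMBI on both. On LN521 replicate 3 was the highest for 7 genes at day 22, and at day 32 replicate 1 was the lowest for 7 genes. The share of all genes that were lowest or highest in these libraries was not counted. Over 16366 genes, the deviations of replicate 2 of LN523 and of LN323 from their group means had r of 0.815 at day 22. The LN521 libraries of day 32 had BMP4 at 24.5, 43.0 and 47.2 CPM, ID3 at 156, 486 and 762 CPM and ID4 at 66.2, 135 and 248 CPM in the order of the replicates. Across the 27 libraries, after subtraction of each day's mean from log2(CPM + 1), Pearson's r was 0.802 between BMP4 and ID1, 0.802 between BMP4 and ID2, 0.570 between BMP4 and ID3 and 0.696 between BMP4 and ID4. NOG followed the same libraries, with r of 0.671 with BMP4, 0.663 with ID1 and 0.667 with ID2. BAMBI did not, with r of 0.072 with BMP4, nor did GREM1, at 0.203 with BMP4 and 0.020 with ID2. BMP7 had r of 0.403 with BMP4 and −0.123 with ID3, and BMP2 had r of −0.280 with BMP4 and −0.389 with ID3. These are descriptions over libraries that share lanes, groups and scaling, and mesenchyme and pluripotency markers varied between the same libraries, and their part was not tested. Over 16224 genes, the same measure placed ID1 and ID2 nearest to BMP4, with ALCAM at 0.792 next. The nearest genes were SIRT4 (0.903), TOX (0.894) and KLF15 (0.891) for ID1, EIF3J-DT (0.895) for ID2, JHY (0.872) for ID3, MXRA8 (0.871) for ID4 and GPRIN2 (0.893) for NOG. For GREM1 it was PLCE1 (0.826), for BMP7 PLAAT5 (0.821), for BAMBI MAP3K4-AS1 (0.814) and for BMP2 SPNS2 (0.784).

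**Figure D4:**
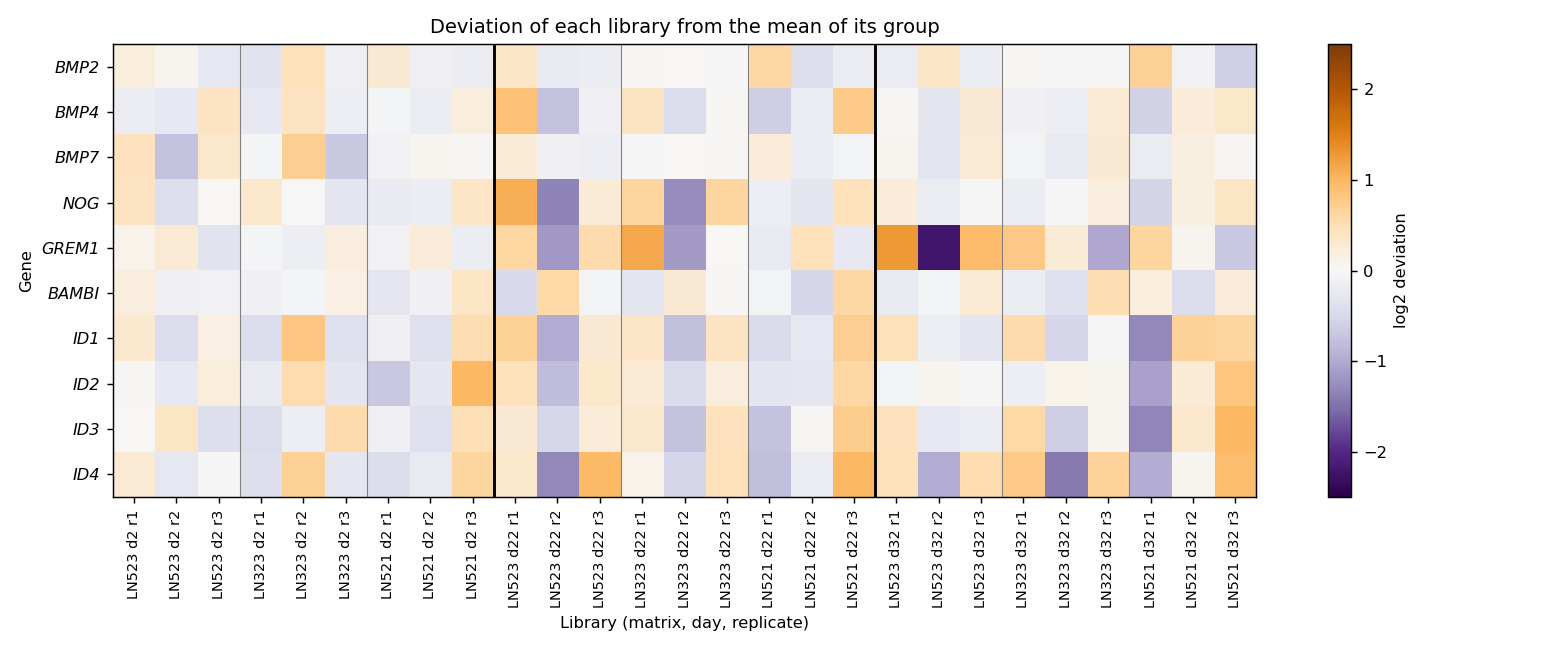
Deviation of each library from the mean of its 3 replicates, as log2(CPM + 1), for the 10 genes (rows) in the 27 libraries (columns, d for day and r for replicate), with orange above and purple below the mean. At day 22 the columns of replicate 2 on LN523 and LN323 are purple for BMP4, NOG, GREM1 and ID1 to ID4 and orange for BAMBI.

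The 53 other genes of the BMP pathway in the table were grouped by role. From day 2 to day 22, 25 rose and 5 fell on LN523, 25 rose and 5 fell on LN323, and 24 rose and 4 fell on LN521, which is 56.6%, 56.6% and 52.8% called. Over all genes 21.7%, 22.7% and 18.9% were called, and 11.5%, 11.8% and 10.8% were called higher. The median log2 fold change of the 53 genes was 0.60, 0.76 and 0.65, beside 0.02, 0.02 and −0.02 for all genes. All genes here include many with few counts, and the share called among genes of like level was not counted. Among 4 SMAD effectors, 2 rose on each matrix, led by SMAD9, a receptor-activated SMAD, at 6.31, 5.99 and 5.71 log2 units on LN523, LN323 and LN521. SMAD9 went from 2.60, 2.34 and 2.12 CPM at day 2 to 233, 100.4 and 251 CPM at day 22 on LN523, while SMAD5 rose by 0.59 there. Of 7 receptors, 2, 3 and 2 rose and none fell, which is 28.6%, 42.9% and 28.6% called and on LN523 and LN521 near the share of all genes. On each matrix those that rose included the type I receptor BMPR1B at 4.43, 4.28 and 5.24 and the type II receptor BMPR2 at 1.92, 1.68 and 1.24. Of 4 co-receptors none rose and 1, 2 and 2 fell, with RGMA at −1.98, −1.89 and −1.45 log2 units in all 3.

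Of 6 inhibitory SMADs, ubiquitin ligases and corepressors, 1, 1 and 2 rose and 1 fell on each matrix, while 4, 4 and 3 did not pass, with medians of 0.05, 0.14 and 0.14 log2 units. SMAD6, which blocks BMP-activated SMADs, rose by 3.25, 3.46 and 3.23 log2 units, and the corepressor SKIL fell, at −1.30, −1.28 and −1.41. Of 14 other secreted antagonists and modulators, 8 rose on each matrix and 2, 1 and 0 fell. Among those that rose were chordin (CHRD) at 4.29, 4.76 and 3.17 and SOSTDC1 at 5.45, 5.70 and 4.94. The 1 gene that fell on LN323 was CER1, at −6.01 log2 units, from a mean of only 1.05 CPM at day 2. Of the 3 chordin proteases, TLL1 and BMP1 rose on each matrix and TLL2 fell. Of 10 other ligands, 5, 4 and 3 rose and none fell, with GDF6 at 5.94, 5.99 and 6.93 log2 units. All 5 further target genes rose on each matrix, among them MSX2 at 6.96, 7.54 and 6.97 log2 units, and the largest edgeR adjusted p of the genes named in these 2 paragraphs was 0.0178, that of SMAD5 on LN523.

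**Figure D5:**
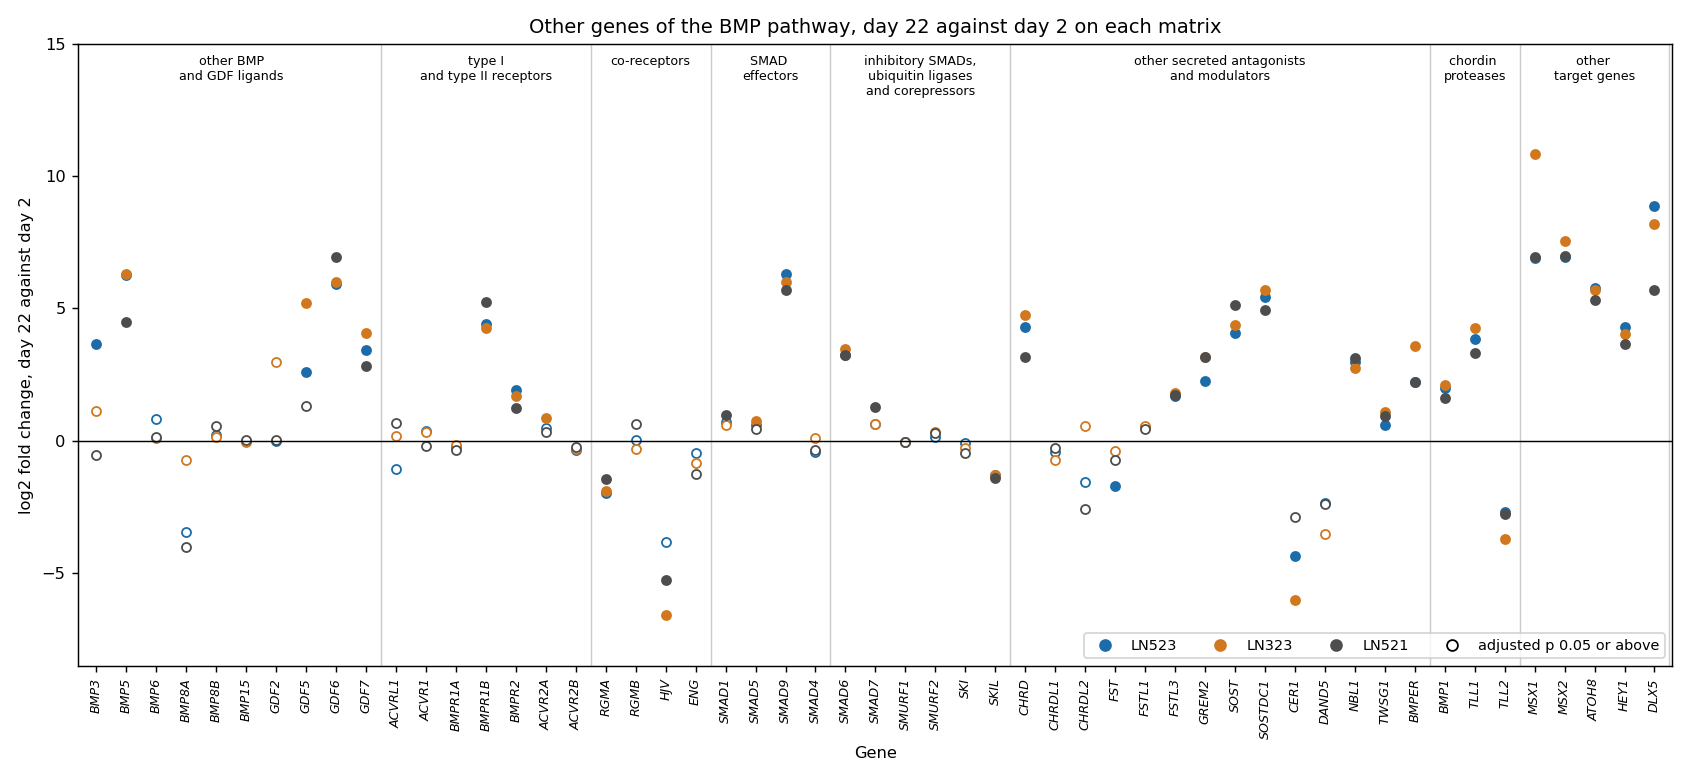
Log2 fold change from day 2 to day 22 of the other BMP pathway genes, grouped by role, with 1 point per matrix and filled points for an edgeR adjusted p under 0.05. SMAD9, BMPR1B, SMAD6, CHRD, SOSTDC1, GDF6 and MSX2 lie above 3 log2 units on each matrix, and genes with few counts at day 2, such as MSX1 and DLX5, have values set in part by the fit.

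Between matrices 0 to 3 of these pathway genes were called in a comparison. At day 2, FST, which encodes the activin and BMP antagonist follistatin, was higher on LN523 than on LN323, at 49.8, 18.3 and 35.2 against 14.6, 23.0 and 9.97 CPM and 1.18 ± 0.24 log2 units (edgeR adjusted p = 0.000996), 1 of 51 genes tested, where 0.233% of all genes were called. The groups overlapped, and FST was lower on LN523 in replicate 2. At day 22 CHRD, its protease TLL1 and the target gene ATOH8 were higher on LN323 than on LN521, 3 of 52 genes tested (5.77%, against 0.616% of all genes), at 1.05 ± 0.23, 1.20 ± 0.28 and 0.91 ± 0.21 log2 units (edgeR adjusted p 0.00386, 0.0116 and 0.00784). On LN523, ATOH8 and the ligand BMP3 exceeded their levels on LN521, by 0.88 ± 0.20 and 2.59 ± 0.65 (adjusted p 0.0144 and 0.0313) log2 units, 2 of 52 (3.85%, against 0.572%), with BMP3 below 1 CPM in all 3 LN521 libraries. None was called between LN523 and LN323 at day 22 or in any comparison at day 32. From day 22 to day 32, 1 of 53 (1.89%, against 0.268% of all genes) was called on LN521, BMP3 at 4.02 ± 0.92 log2 units (edgeR adjusted p = 0.0285), and 0 on LN523 and LN323.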

How the data were processed

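Total RNA from 27 libraries of H1 cells was sequenced as 150-base pairs after ribosomal RNA depletion with a stranded kit. The authors trimmed reads with cutadapt, aligned them with STAR (2.5.2b) and counted them per Ensembl gene with featureCounts (1.5.1), removed ribosomal and mitochondrial genes and deposited whole-number counts. The strand setting of the counting is not given in the sources used here, and 68.8% of the counts above 0 were even. The authors also deposited TPM, counts scaled by gene length and library. Groups came from the labels, and replicate numbers are those of the sequencing lanes.

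Gene symbols came from GENCODE 44, which matched 43052 of 44852 identifiers. Counts were normalised by TMM in edgeR (4.0.16, R 4.3.3), and genes with more than 1 count in sum were tested by quasi-likelihood with lane as a block and Benjamini-Hochberg adjustment over all genes tested, called at 0.05. Matrices were compared within the 9 libraries of a day, and days and interactions within all 27 libraries. Shares called over all genes include the genes with few counts that passed this filter. The lane block follows the study's model. Deviations of same-lane libraries of LN523 and LN323 had mean correlations of −0.397, 0.617 and 0.707 at days 2, 22 and 32, and with LN521 some were negative, so that lane is a batch by its label and the libraries of a lane did not all deviate together. Alternatives were DESeq2 (1.42.0), limma (3.58.1) on log2(TPM + 1) and log2(TPM + 0.1), RLE scaling, filterByExpr, at least 10 counts in every library, other sets of libraries in the fit, no lane block, and each library left out in turn, the lone groups of 2 sharing the spread of the fit. The scripts were tested on simulated counts.

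The 10 genes and all lists were chosen with earlier results of these data known. Of each list, up to 3 called genes with the largest change and a mean of at least 1 CPM are named, and for each of the 10 genes the like-pattern genes with the highest Pearson r. The text sometimes names fewer. Promoter letters were searched with Python (3.11.15) in RefSeq sequences.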

Additional observations from a re-analysis of the deposited data

How the results depend on the processing

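The 26 calls between days 2 and 22 kept their direction under the alternatives run, and 25 kept their call under every one, the exception being ID1 on LN323. The 6 calls between matrices kept their direction but not their call. All 6 kept it with RLE scaling, 3 without the replicate block, 3 with only the 2 groups compared and 2 with DESeq2, and the cause was not tested. The biological coefficient of variation was 37.4% at day 2, 39.5% at day 22, 44.4% at day 32 and 45.1% over 27 libraries, which with 3 libraries per group limits what could be called. RLE against TMM moved the fold changes of the BMP genes described here the most on LN521 from day 2 to day 22. The median shift there was −0.087 log2 units, with a range of −0.094 to −0.073, and the shift over all genes is not given here.

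At day 2 the 2 genes called between LN523 and LN323 became 0 with filterByExpr, at least 10 counts, either limma scale, only the 2 groups compared and all 27 libraries, and 0 to 5 with 1 library left out. Between LN523 and LN521 the count of 0 became 1 without the replicate block and with only the 2 groups, and 0 to 1 with 1 library left out. Between LN323 and LN521 the 1 gene became 0 with both count filters, both limma scales and all 27 libraries, 3 without the replicate block, and 0 to 5 with 1 library left out. At day 22 the count of 0 between LN523 and LN323 became 0 to 2 with 1 library left out. The 1 gene between LN523 and LN521 became 0 with DESeq2, both count filters, both limma scales, no replicate block, only the 2 groups and all 27 libraries, and 0 to 2 with 1 library left out. The 2 genes between LN323 and LN521 became 0 with DESeq2, both count filters, both limma scales, no replicate block and all 27 libraries, and 0 to 3 with 1 library left out. At day 32 the count of 0 became 2 between LN523 and LN323 with only the 2 groups (BAMBI at −0.48 and ID4 at 0.33 log2 units), and between LN323 and LN521 1 with DESeq2 and 0 to 2 with 1 library left out. From day 22 to day 32 it became 0 to 1 on LN523 and on LN521 with 1 library left out and 2 on LN521 with only the 9 libraries of the matrix. The interactions from day 2 to day 22 of LN523 and of LN521 against LN323 became 0 to 1 with 1 library left out. Leaving out the replicate block also moved the count between LN523 and LN323 at day 2 from 2 to 3, and apart from the 5 counts given here with that setting it changed none.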

Other observations

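BMP signalling is known to set apart the dorsal and ventral sides of the eye. In the LN521 libraries of day 22, all 6 dorsal genes on the list (TBX2, TBX3, TBX5, EFNB1, EFNB2 and ALDH1A1) were lowest in replicate 1 and highest in replicate 3. Of 5 ventral genes, VAX1, VAX2 and EPHB2 stood in the opposite order and EPHB3 and ALDH1A3 in neither. BMP4, ID1, ID2, ID3 and ID4 stood in the order of the dorsal genes. The other BMP genes described here did not. BMP2 and BMP7 were highest in replicate 1, GREM1 was highest in replicate 2, and NOG and BAMBI were lowest in replicate 2. The share of all genes in either order was not counted at day 22 or day 32. Summed eye field and neural retina markers stood in the order of the dorsal genes at day 22, at 1065, 1338 and 1738 CPM. The pluripotency sum stood in the opposite order, at 408, 160 and 111 CPM. At day 22 ID4 was at 79.8, 123 and 275 CPM and BMP4 at 47.2, 64.5 and 125 CPM in replicates 1, 2 and 3. The dorsal retinaldehyde dehydrogenase ALDH1A1 was at 272, 1117 and 4170.3 CPM and the dorsal transcription factor TBX5 at 3.79, 14.2 and 110.0 CPM. The ventral homeobox gene VAX2 ran the other way, at 13.8, 5.83 and 0.220 CPM, as did VAX1 at 6.08, 0.332 and 0.0549 CPM. At day 32 the order was kept by 4 of the 6 dorsal genes, TBX3 and EFNB2 being the exceptions, and the opposite order by VAX1 and VAX2, with ALDH1A1 at 208, 1045 and 5589.8 CPM, VAX2 at 23.7, 2.00 and 0.447 CPM and ID4 at 66.2, 135 and 248 CPM. Replicate 1 also held the POU5F1 signal given above, and the part of undifferentiated cells in this order was not tested.

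On LN323 at day 22, ALDH1A1 was at 3973, 3263 and 4035 CPM, and VAX2 was at 0.228, 0.592 and 0.820 CPM. Replicate 3 of LN521 at day 22, given above, lay above these LN323 libraries in ALDH1A1 and below them in VAX2. Of 6 dorsal genes, 4 were higher on LN323 than on LN521 at day 22 by the edgeR quasi-likelihood test, where 0.616% of all genes were called, ALDH1A1 at 1.64 ± 0.26 log2 units (adjusted p = 9.21e-06), EFNB2 at 1.42 ± 0.21 (1.13e-06), TBX5 at 1.62 ± 0.31 (0.000494) and TBX3 at 0.98 ± 0.24 (0.0223). Of 5 ventral genes, VAX1 and VAX2 were lower, VAX2 at −2.99 ± 0.62 log2 units (edgeR adjusted p = 0.00223), and VAX1 was listed at 0 CPM in the 3 LN323 libraries. For LN523 against LN521, where 0.572% of all genes were called, 2 of the 6 dorsal genes were called higher, TBX5 at 1.25 ± 0.31 log2 units (edgeR adjusted p = 0.0234) and ALDH1A1 at 1.01 ± 0.25 (0.0203), and none of the 5 ventral genes was called. TBX3 was the fourth by size and is named here after its values were seen. For the dorsal and ventral genes, calls under the alternative settings are not given here.

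Of the 3 genes for E proteins, the partners that ID proteins bind, TCF12 rose from day 2 to day 22 by 0.88, 0.93 and 0.98 log2 units on LN523, LN323 and LN521. TCF3 fell on LN523 and LN323, at −0.64 and −0.68, and was at −0.41 on LN521 (edgeR adjusted p = 0.0857), while TCF4 was called on none of the 3 matrices, at 0.04, 0.09 and −0.05.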
